A study of Mus musculus with 4 samples.

Results

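The clarins and the scaffold proteins of the Usher complex were followed through 4 mouse cochlear RNA pools as 7 genes, Clrn1, Clrn2, Clrn3, Ush1c, Ush1g, Pdzd7 and Whrn, out of 30028 gene names on the array. They were chosen by name, taking every non-control probe whose gene name in the scanner files was 1 of the 7, and this gave 12 probes with 1 spot each per array. The pools came from wild-type (WT) and OHC-TRECK mice of the B6J strain, dissected at 5 weeks of age, and the design text gives 4 females and 4 males. In OHC-TRECK mice, which the study also calls Prestin-hDTR, the promoter of prestin (Slc26a5), the motor protein of outer hair cells, drives a modified human receptor for diphtheria toxin (DT), and the mice come from 1 transgenic line. Both genotypes were sampled untreated and 7 days after 50 μg/kg of DT, and each of the 4 groups is 1 pool on 1 array. The comparison asks whether the small difference of Clrn2 after DT is shared by its relatives. With 1 array per group there is no replicate, and every value describes these arrays without a test.

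Clarins are small membrane proteins with 4 passes through the membrane, and in hair cells clarin-1 and clarin-2 serve the hair bundle, the tuft of actin-filled stereocilia that turns sound into current. Ush1c encodes harmonin and Ush1g encodes SANS, scaffolds that hold the tip links of the bundle. Whrn encodes whirlin, and Pdzd7 encodes a related PDZ protein, and both organise the ankle links at the base of the growing bundle, whirlin also acting at the stereocilia tip. Loss of members of this group causes deafness, in several cases with loss of sight as Usher syndrome.

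The probes of the pair of clarins that were measured, and the upstream probe of Ush1c, are shown because the differences described here rest on these single 60-base sequences. The coordinates are those of the array design in the mouse build mm9. Capitals mark the longest run that the Clrn1 and Clrn2 probes have in common, which is 5 bases.
Clrn1 (chr3:58650227-58650286, minus strand): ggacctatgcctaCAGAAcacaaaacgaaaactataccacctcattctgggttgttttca
Clrn2 (chr5:45855144-45855203, plus strand): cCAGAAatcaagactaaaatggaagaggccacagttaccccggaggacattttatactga
Ush1c, upstream (chr7:53460570-53460629, minus strand): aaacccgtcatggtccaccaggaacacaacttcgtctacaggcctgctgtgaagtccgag
Read from its first base, the Clrn2 probe holds 20 codons, of which 1, the last, is a stop. Over all 66 pairs of member probes, the longest shared run was 8 bases. The array files list at most 4 transcripts for a member probe, and the other Ush1c probe lies 9842 bases further towards the 3′ end of the gene in the same build. The array has 1 probe each for Clrn1, Clrn2, Clrn3 and Ush1g, 2 for Ush1c and for Whrn, and 4 for Pdzd7.

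Levels are given as log2 of the intensity over the 75th percentile of the array, so that a level of 0 equals that percentile, and a level of 1 probe is not compared with that of another. The software that read the arrays tests whether a probe is well above background, and 62.2% to 70.6% of the 39429 probes passed on an array. Of the 12 member probes, 6 passed this test on each of the 4 arrays, 8 passed it at least once and 4 never did. The only error that can be given is that of the spot, as estimated by the software, which was 10.0% to 14.8% of the signal for the 6. Probes spotted repeatedly on the array varied by an SD of 0.06 to 0.07 (log2, median per array), and by 0.11 to 0.14 where their level lay between -4.5 and -3, the range of the clarins. These errors cover the spot and not the mice.

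Clrn2 stood at -3.37 in untreated WT mice, -3.41 in DT-treated WT mice, -3.38 in untreated OHC-TRECK mice and -4.46 in DT-treated OHC-TRECK mice. In intensity, these are 264, 297, 290.5 and 142. The first 3 arrays lay within 0.04 of each other, less than the spot error of 0.21 to 0.22 of their ratios to untreated WT. DT-treated OHC-TRECK lay 1.05 below the lowest of them. These 3 arrays are 3 different groups, so their spread does not measure the variation within a group. DT-treated OHC-TRECK was 2.11-fold lower than untreated OHC-TRECK (log2 ratio -1.08 ± 0.26, spot error), 2.12-fold lower than untreated WT (-1.09 ± 0.26) and 2.06-fold lower than DT-treated WT (-1.05 ± 0.27). The difference was thus close to the 2-fold screen. With normexp background correction the same 3 ratios were 1.68-fold, 1.75-fold and 1.67-fold, and with quantile normalization the ratio to DT-treated WT was -0.98 (log2), so the call at 2-fold against all 3 arrays is lost under both.

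Clrn1, whose human counterpart is the gene of Usher syndrome type 3, stood at -3.26 in untreated WT, -3.39 in DT-treated WT, -3.14 in untreated OHC-TRECK and -3.60 in DT-treated OHC-TRECK mice. DT-treated OHC-TRECK was again the lowest array, but by 0.20, while the other 3 arrays were spread over 0.26. Its log2 ratio was -0.46 ± 0.24 against untreated OHC-TRECK, -0.34 ± 0.24 against untreated WT and -0.20 ± 0.25 against DT-treated WT, or 1.38-fold, 1.27-fold and 1.15-fold lower. Clrn3, the clarin known from epithelia outside the ear, never passed the background test and gave no ratio.

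**Figure D1:**
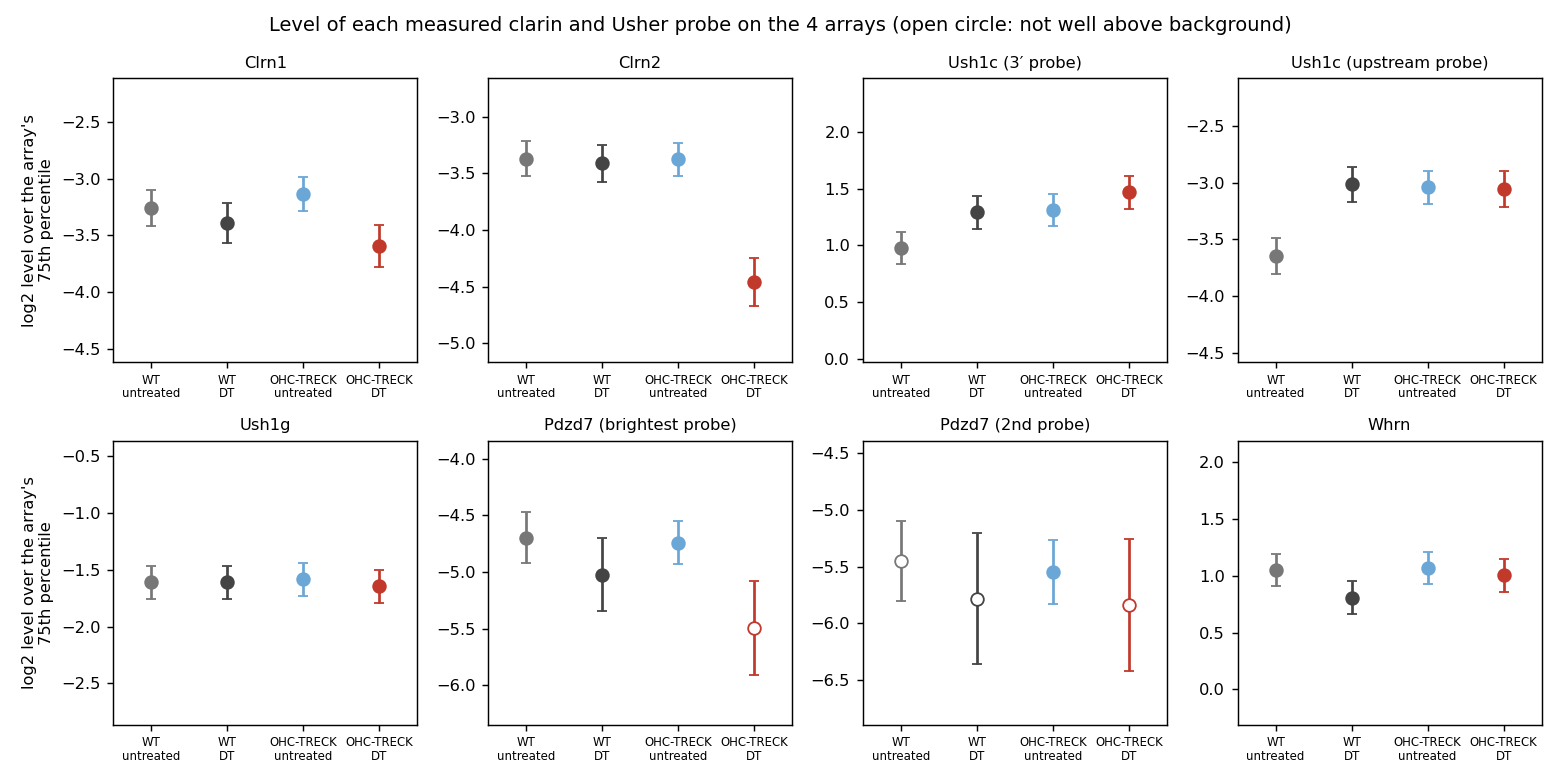
Each panel plots the level (vertical axis, log2 over the array's 75th percentile) of 1 member probe on the 4 arrays (horizontal axis), with the spot error as a bar, and all panels span the same number of log2 units. Clrn2 is level on 3 arrays and at -4.46 in DT-treated OHC-TRECK, Ush1g is level on all 4, and the upstream Ush1c probe is low in untreated WT at -3.65.

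Ush1g, the gene of SANS, was at -1.61 in untreated WT, -1.61 in DT-treated WT, -1.58 in untreated OHC-TRECK and -1.65 in DT-treated OHC-TRECK mice. The 4 arrays lay within the spot error of each other, and DT-treated OHC-TRECK was lower than the other arrays by 1.02-fold to 1.04-fold, with the sign against untreated WT turned under normexp and under median scaling. Whrn was at 1.05, 0.81, 1.07 and 1.01 in the same order, with DT-treated OHC-TRECK inside the range of the other arrays and DT-treated WT the lowest. The other Whrn probe never passed the background test.

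The Ush1c probe nearer the 3′ end was at 0.98 in untreated WT, 1.29 in DT-treated WT, 1.31 in untreated OHC-TRECK and 1.47 in DT-treated OHC-TRECK mice. DT-treated OHC-TRECK was thus the highest array on this probe, 1.41-fold over untreated WT (0.49 ± 0.20). It was 1.12-fold over untreated OHC-TRECK (0.16 ± 0.20) and 1.13-fold over DT-treated WT (0.18 ± 0.20), both within the spot error. The upstream Ush1c probe was at -3.65, -3.02, -3.04 and -3.06. Here 3 arrays lay together and untreated WT stood below them, by 1.52-fold under untreated OHC-TRECK (0.60 ± 0.21), 1.55-fold under DT-treated WT (0.63 ± 0.22) and 1.51-fold under DT-treated OHC-TRECK (0.59 ± 0.22). Both Ush1c probes were lowest in untreated WT, and the ratios of DT-treated OHC-TRECK to the other arrays ran from -0.04 to 0.59 over the pair of probes.

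The brightest Pdzd7 probe was at -4.70 in untreated WT, -5.02 in DT-treated WT and -4.74 in untreated OHC-TRECK mice, and it did not pass the background test in DT-treated OHC-TRECK mice, where its measured level was -5.49. Against the lowest signal that was well above background on that array, DT-treated OHC-TRECK was at least 1.62-fold lower than untreated OHC-TRECK, at least 1.68-fold lower than untreated WT, and at least 1.34-fold lower than WT mice given DT. Its spot error was 13.1% to 22.2% on the 3 arrays where it was measured. A second Pdzd7 probe passed in untreated OHC-TRECK only and gave no fold, and the other 2 never passed.

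Read against all probes, 1 member was past 2-fold and only in the contrasts of DT-treated OHC-TRECK. Between untreated OHC-TRECK and untreated WT, 0 of 8 member probes differed by 2-fold, where 3.33% of all 28327 probes compared did, and between DT-treated and untreated WT 0 of 7 did, where 2.55% of all probes did. In DT-treated OHC-TRECK, 1 of 8 member probes was 2-fold lower than in untreated OHC-TRECK (1.35% of all probes), 1 of 7 lower than in untreated WT (1.95%) and 1 of 7 lower than in DT-treated WT (1.83%), and each time this was Clrn2. In the same order, 0 of 8, 0 of 7 and 0 of 7 member probes were 2-fold higher, against 2.49%, 1.96% and 1.41% of all probes. These 3 contrasts share the DT-treated OHC-TRECK array. The study had already named Clrn2 among the genes lowered on these same arrays. The Clrn2 call was thus known in advance and is not an independent result. Clrn2 was the 1 of 7 member probes that was 2-fold lower than each of the other 3 arrays, as were 65 of 25061 probes (0.259%). No member probe was so low on another array, where the share of all probes was 0.0189% for untreated WT, 0.008% for DT-treated WT and 0.119% for untreated OHC-TRECK. Of the 65, Clrn2 ranked 59th by its smallest difference, near the edge of the screen. Being merely the lowest of the 4 arrays in DT-treated OHC-TRECK was common, and held for 3 of 6 member probes (Clrn1, Clrn2 and Ush1g) and for 35.2% of all 23688 probes well above background on all 4 arrays.

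In DT-treated OHC-TRECK against the mean of the other 3 arrays, Clrn2 was at -1.07 ± 0.23 and Clrn1 at -0.33 ± 0.21. The 2 clarins differed there by -0.74 ± 0.31 (spot error), and against untreated OHC-TRECK alone by -0.62 ± 0.35. Ush1g was at -0.05, Whrn at 0.03, and Ush1c at 0.28 (3′ probe) and 0.18 (upstream probe). Clrn2 lay below each of these by 1.02 to 1.35. Clrn2 was singled out because it was already known to be low on these same arrays, so its distance from the relatives is not an independent result. The spot error does not cover the mice. Among the 23688 probes, whose median was -0.01 with an SD of 0.30, Clrn2 was the 96th from the bottom. At or below Clrn1 lay 8.88% of the probes, and at or below Ush1g, Whrn and the 2 Ush1c probes lay 41.6%, 58.1%, 82.8% (upstream) and 90.2% (3′).

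**Figure D2:**
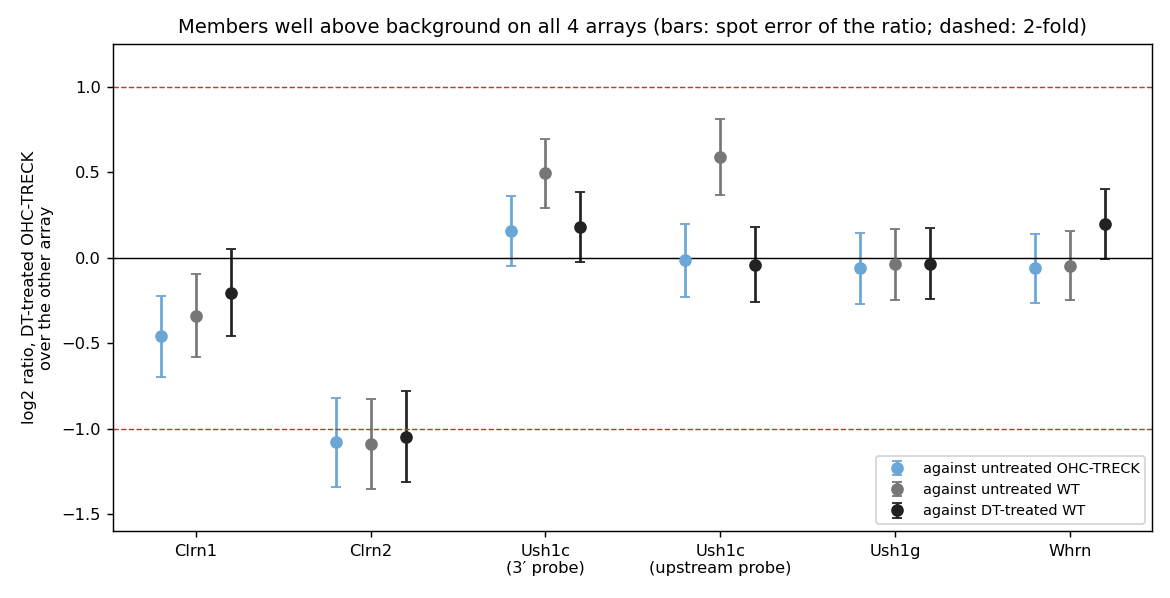
For the 6 member probes well above background on all 4 arrays, the log2 ratio of DT-treated OHC-TRECK (vertical axis) is plotted against each of the other 3 arrays, with the spot error of the ratio as a bar and the 2-fold screen as dashed lines. The 3 Clrn2 points lie between -1.05 and -1.09, the 3 Clrn1 points between -0.20 and -0.46, and the others at -0.06 or above.

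The toxin contrast can be taken within each genotype from separate arrays. In WT mice Clrn2 differed by -0.04 between DT-treated and untreated mice and in OHC-TRECK mice by -1.08, and the second contrast was lower than the first by 1.04 ± 0.34 (log2, spot error). For Clrn1 the values were -0.14 and -0.46, and the contrasts differed by -0.32 ± 0.33. The difference was -0.06 ± 0.29 for Ush1g, 0.18 ± 0.29 for Whrn and -0.16 ± 0.29 for the 3′ probe of Ush1c, each within its error. For the upstream probe of Ush1c it was -0.64 ± 0.31, but there the WT contrast was 0.63 and the OHC-TRECK contrast -0.01, so most of the difference lay in the WT contrast.

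**Figure D3:**
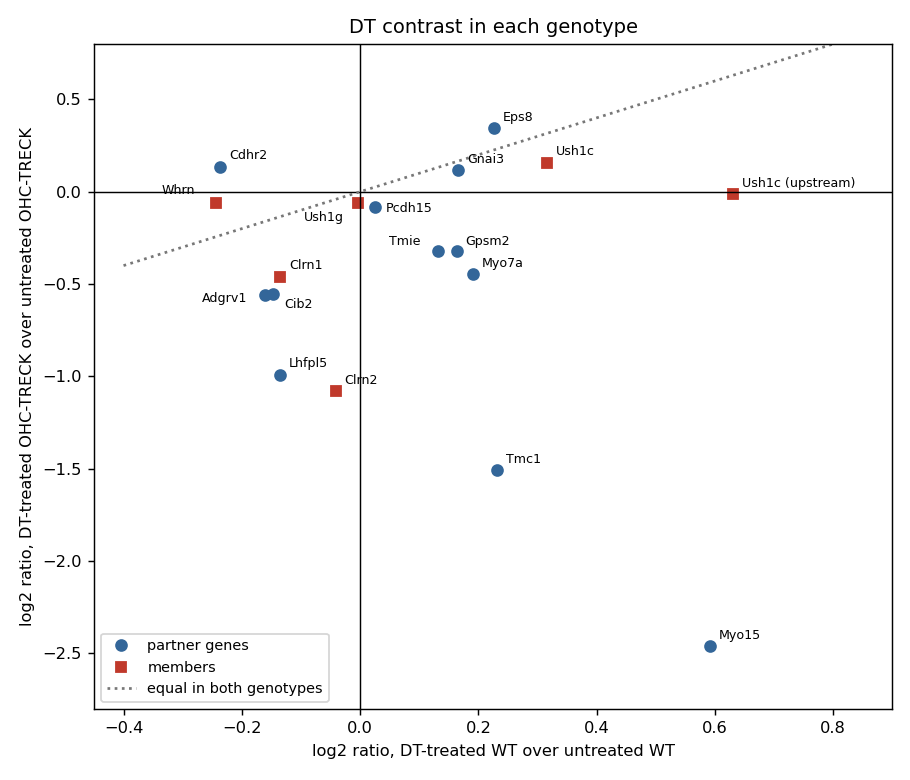
The log2 ratio of DT-treated over untreated OHC-TRECK mice (vertical axis) is plotted against that of DT-treated over untreated WT mice (horizontal axis) for member probes (squares) and partner genes (circles) well above background on all 4 arrays. Clrn2 lies at -0.04 and -1.08, Myo15 at 0.59 and -2.46, and the upstream Ush1c probe at 0.63 and -0.01.

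The proteins that the members bind gave mixed values in DT-treated OHC-TRECK against the mean of the other 3 arrays, where the median of all probes was 0.00. Of the Usher 1 partners, 3 of 4 genes were measured, with a median of -0.36: Cib2, a calcium-binding protein of the transduction complex, was at -0.46, Myo7a, the motor of harmonin and SANS, at -0.36, and Pcdh15, the lower part of the tip link, at -0.07. Its tip-link partner Cdh23 was not detected above background. Adgrv1, the large receptor of the ankle links, was at -0.56.

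Myo15 was the partner with the largest difference. This motor, which carries whirlin to the stereocilia tip, was at -0.93 in untreated WT, -0.34 in DT-treated WT, -0.36 in untreated OHC-TRECK and -2.82 in DT-treated OHC-TRECK mice, and was 2-fold lower there than on each other array. The other 3 partners at the tip were Gpsm2 at -0.25, Gnai3 at 0.19 and Eps8 at 0.32, so the median of the 4 was -0.03. In the transduction channel complex, with 4 of 4 genes measured and a median of -0.64, Tmc1 was 2-fold lower than each other array (-1.36), Lhfpl5 was at -0.95, and Tmie at -0.33. Tmc2 passed the background test on 2 arrays only, and without it the median of the other 3 genes was -0.95. A second Lhfpl5 probe was at -0.03, so its probes disagree. Of the 4 microvillar relatives of the Usher 1 complex, which act in gut and kidney, Cdhr2 alone was measured on all 4 arrays, at -0.07. Myo7b and Cdhr5 passed the background test on 1 and 2 arrays, neither in DT-treated OHC-TRECK, and Anks4b was not detected above background, so no median is given.

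**Figure D4:**
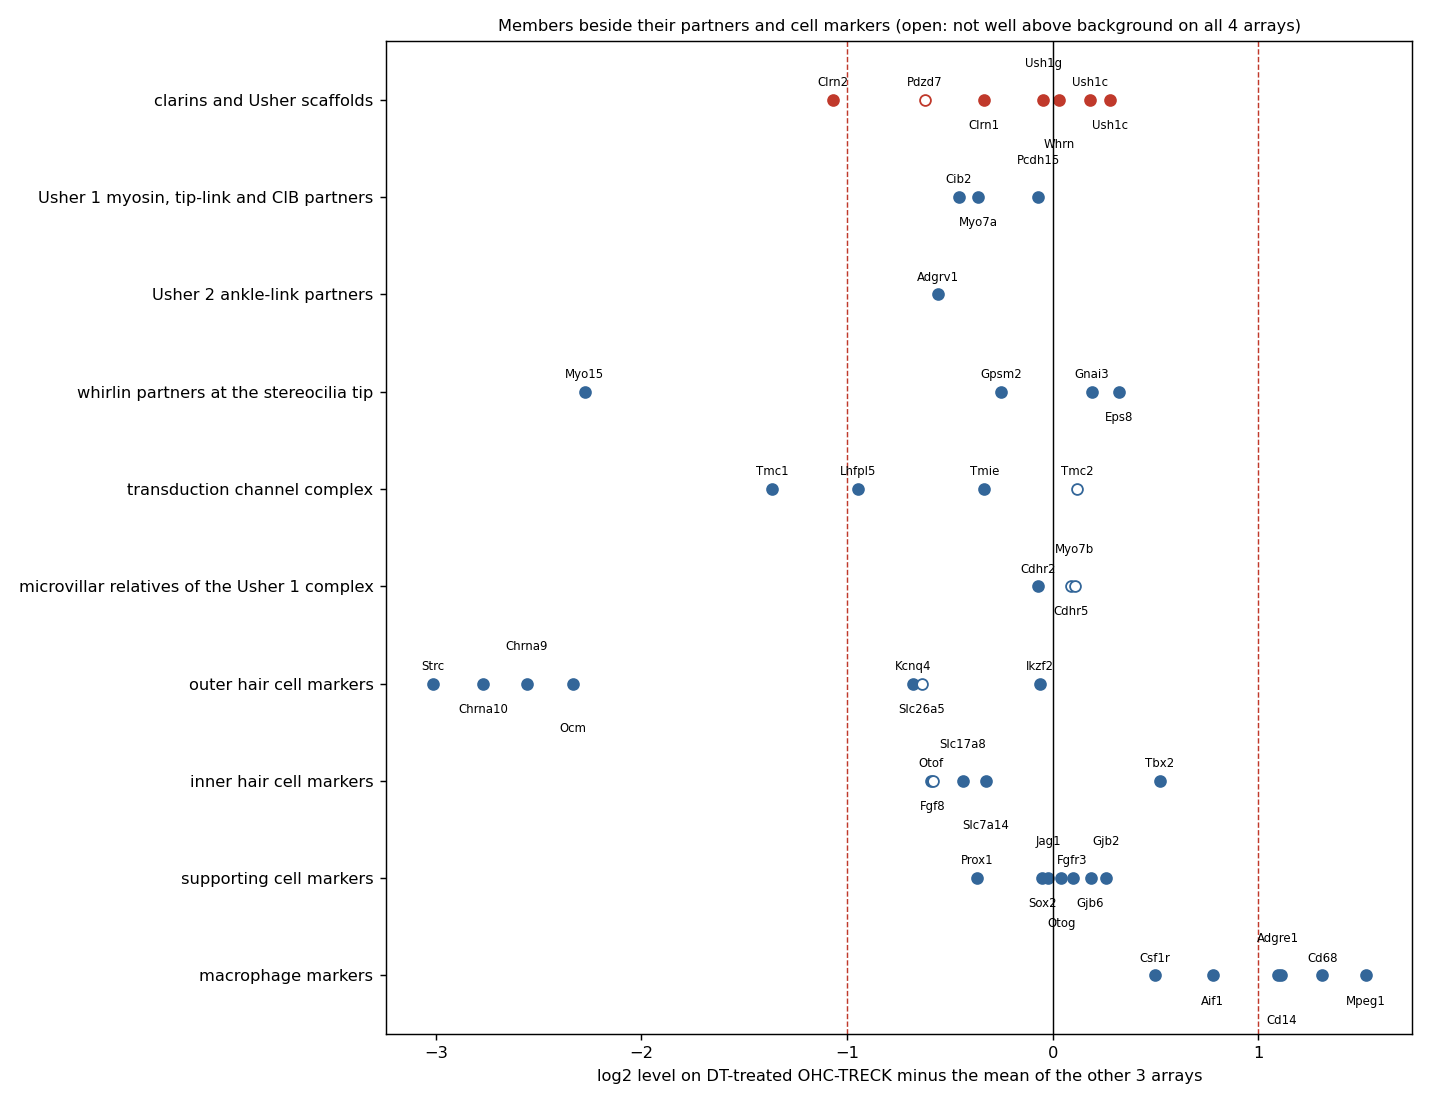
The difference of DT-treated OHC-TRECK from the mean of the other 3 arrays (horizontal axis, log2) is plotted for each measured gene of the members, their partners and the cell markers, with dashed lines at 2-fold. Open circles did not pass the background test on every array, and their values rest in part on dim signals. Clrn2 at -1.07 lies between the group of Strc, Chrna10, Chrna9 and Ocm, at -3.02 to -2.33, and the inner hair cell markers, of which 4 of 5 lie between -0.59 and -0.33.

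Cell markers on the same arrays give the setting of these values. Of 7 outer hair cell markers, 7 were below 0 in that difference and 4 were 2-fold lower in DT-treated OHC-TRECK than on each other array, namely Strc at -3.02, Chrna10 at -2.77, Chrna9 at -2.56 and Ocm at -2.33. The driver gene Slc26a5 was dim, at -4.89, -4.47 and -5.06 on the first 3 arrays, and it did not pass the background test in DT-treated OHC-TRECK. The summed level of the 7 outer hair cell markers was 4.64, 4.52, 4.65 and 2.52 in the order used above, that of the 5 inner hair cell markers 2.75, 2.77, 2.83 and 2.73, and that of the 7 supporting cell markers 6.80, 6.74, 6.80 and 6.99. The sums add linear signals, so the brightest probes weigh most. Ocm, at 4.36, 4.21, 4.35 and 1.97, makes up most of the outer hair cell sum, and Gjb2 and Gjb6 most of the supporting cell sum. The inner hair cell sum holds unlike members, since Tbx2 was higher in DT-treated OHC-TRECK by 0.52 while the other 4 were lower, and the median of the 5 differences was -0.44. Clrn2 therefore differed less than the 4 lowest outer hair cell markers, and more than any of the 5 inner hair cell markers, whose lowest was Otof at -0.59. In RNA of a whole cochlea, fewer cells of a type and less RNA per cell cannot be told apart. From cell counts, the study reports that DT depleted almost all outer hair cells of OHC-TRECK mice and left the number of inner hair cells unchanged. How much of each difference in RNA came from this cell loss was not tested. All 6 macrophage markers were higher in DT-treated OHC-TRECK, by 0.50 to 1.52, and their summed level was 3.59, 3.54, 3.40 and 4.29, and their part in the values of the members was not tested.

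The genes nearest to Clrn2 over the 4 arrays were sought among 23688 probes by the Euclidean distance of log2 levels centred on the mean of each probe. The nearest 5 were Gm5107 (distance 0.04), ENSMUST00000183285 (0.04), Lmod3 (0.06), Gpr137c (0.07) and 4930402H24Rik (0.10). In DT-treated OHC-TRECK they lay between -1.11 and -0.96 relative to the mean of the other arrays, which follows from how they were chosen. Lmod3 encodes leiomodin-3, a protein of muscle actin filaments, and Gpr137c an orphan membrane protein. Of all genes in the partner and marker lists, Lhfpl5 was the nearest to Clrn2 (distance 0.13, rank 11 of 18248 gene names), by its brighter probe. Of the relatives, Clrn1 was at a distance of 0.66 (rank 1548), Ush1g at 0.89 (rank 7648), Whrn at 0.97 (rank 11352) and both Ush1c probes at 1.20. The distance also grows with the size of a difference, so Strc, which was lower still in DT-treated OHC-TRECK, lay at 1.69. With normexp background correction none of the 5 nearest genes was the same.

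**Figure D5:**
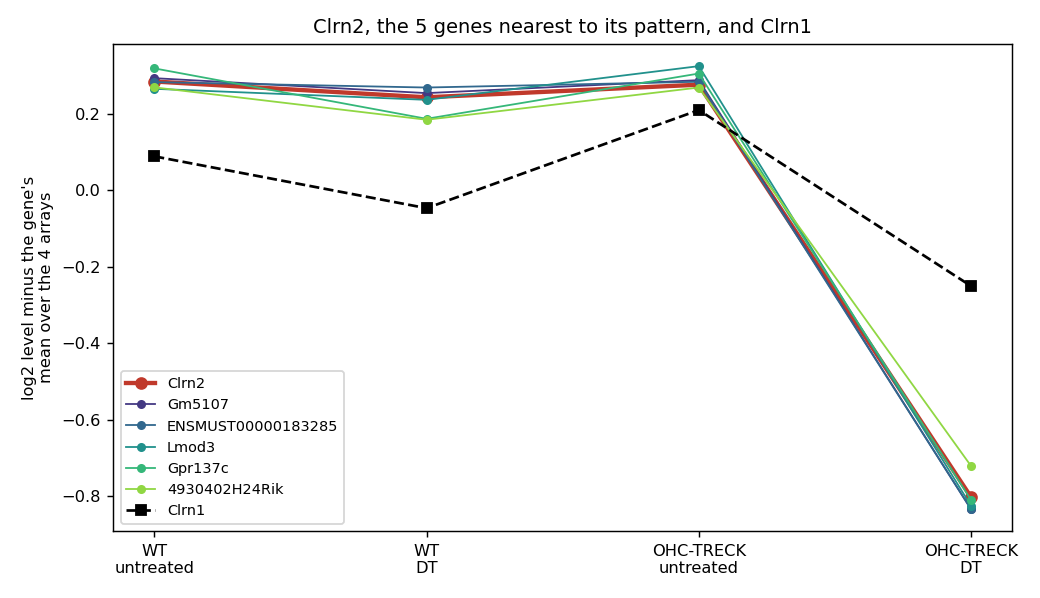
The level of Clrn2, of the 5 genes nearest to its pattern and of Clrn1 (vertical axis, log2 minus the mean of each gene over the 4 arrays) is plotted over the 4 arrays (horizontal axis). The nearest genes, chosen for their closeness to Clrn2 on these arrays, lie between -0.72 and -0.83 in DT-treated OHC-TRECK, and Clrn1 lies at -0.25.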

How the data were processed

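Cochlear RNA of the 4 groups, pooled by the authors within each group, was measured with 1 Cy3-labelled sample per Agilent mouse array, all on 1 slide, per the labels and the methods of the study. The authors deposited the scanner output of Agilent Feature Extraction 11.5.1.1, in which the intensity of each spot is linear and background-subtracted, and arrays are not scaled to each other. The authors also deposited a table of linear values, each a ratio of that intensity to 1 constant per array, close to the 75th percentile over its spots. Its column medians were 0.083 to 0.086, so its values are not centred on the median of the arrays. That table and the mean and background signals of each spot served as alternatives only.

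From these files, controls and 149 to 228 outlier spots per array were dropped, and no spot was saturated. The remaining spots were averaged by probe, scaled by the array's 75th percentile over 39429 probes as in the methods, and brought to log2. Comparisons used probes that passed the software's test of being well above background in 1 or both of the groups compared, with flags decided by a majority (over 0.5) of the spots, and called at 2-fold, the screen of the methods. Where only 1 group passed, the dim signal was set to the lowest passing signal on its array, or to its own if that was larger, so the fold is a lower bound. The error of a ratio combines the spot errors that the software gives for its arrays. The number of arrays limits the precision, and no test across arrays was made. The members and gene lists were chosen with earlier results of these data known. Each of the 5 partner lists and the cell marker lists took the brightest measured probe of a gene, and older array names were matched through RefSeq synonyms. All member probes, all list genes and the 5 genes nearest to Clrn2 could be named, apart from 1 list gene that is not reported here, and 5 comparisons were made. The 8 alternatives to the calls, all preset, concern the treatment of dim signals, the detection filter, normexp (limma 3.58.1, R 4.3.3, offset 50), median or quantile scaling, the deposited ratio table and the fold. The steps were tested on simulated data, in Python 3.11.15 with numpy 2.4.6, pandas 2.3.3 and matplotlib 3.10.9. Coordinates are those of the array design (mm9). Exons, proteins, and the GeneSpring and qRT-PCR values of the study were not used here.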

Additional observations from a re-analysis of the deposited data

Results flagged for a closer look

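The toxin contrast had opposite signs in the WT and the OHC-TRECK pair of arrays for 1 of 6 member probes and for 7 of 12 partner genes well above background on all 4 arrays, where 44.5% of all 23688 such probes did the same. With 1 array per group these differences were not tested. For the upstream probe of Ush1c the contrast was 0.63 in WT and -0.01 in OHC-TRECK mice, a difference of -0.64 (log2), and the OHC-TRECK contrast turned to 0.04 under normexp and to 0.00 in the deposited table, so that the opposite sign is lost there. Of the partner genes with opposite signs, the OHC-TRECK contrast minus the WT contrast was -3.05 for Myo15, -1.74 for Tmc1 and -0.64 for Myo7a. It was -0.48 for Gpsm2, -0.45 for Tmie, -0.11 for Pcdh15 and, in the other direction, 0.37 for Cdhr2, a microvillar cadherin. For the partner genes with the same sign in both genotypes, it was -0.86 (Lhfpl5), -0.41 (Cib2), -0.40 (Adgrv1), -0.05 (Gnai3) and 0.12 (Eps8). Clrn1, Clrn2 and the 3′ probe of Ush1c had the same sign in both genotypes.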

How the results depend on the processing

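Of 185 values of single member probes recomputed under the preset alternatives, 181 stayed within the spot error of the reported value. The 4 that moved further were all under normexp background correction, which adds an offset of 50 to every signal: Clrn2 at -0.75 against untreated OHC-TRECK, -0.81 against untreated WT and -0.74 against DT-treated WT, and Pdzd7 at -0.13 against untreated OHC-TRECK. Adding 50 to the intensities alone put Clrn2 at 1.83-fold, 1.86-fold and 1.78-fold. Under normexp 0 member probes were called in each of the 3 contrasts of DT-treated OHC-TRECK and 0 were lower than all 3 other arrays. With quantile normalization 0 were called against DT-treated WT (Clrn2 at -0.98) and 0 were lower than all 3, and the cause was not tested. At 1.5-fold, 1 was called between the untreated genotypes and 1 between DT-treated and untreated WT, in both cases Ush1c, 2 against untreated OHC-TRECK (Clrn2 and Pdzd7) and 3 against untreated WT (with Ush1c). The value of the ankle-link list, which rests on Adgrv1, was -0.41 under normexp and that of the transduction channel complex -0.41 with the mean of all measured probes per gene, and the cause was not tested. Under normexp 0 of the 5 genes nearest to Clrn2 were shared. Among the alternative scalings, corrections and the deposited table, 15 member values had another sign than the reported one, all within about 0.10 of 0 before and after. The Clrn2 ratios of DT-treated OHC-TRECK were below 0 under every alternative run.

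No paired analysis was possible because each group has 1 sample.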

Other observations

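Untreated WT stood below both DT-treated WT and untreated OHC-TRECK for the 2 Ush1c probes, by 0.32 (3′) and 0.60 (upstream) on the log2 scale, and the same was seen for several hair cell and supporting cell genes of the lists: Gfi1 by 0.93, Otog by 0.90, Myo15 by 0.58 and Espn by 0.40. Clrn1 and Clrn2 were not below both in untreated WT.

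The summed level of the neutrophil markers was 5.14 in untreated WT, 5.79 in DT-treated WT, 3.65 in untreated OHC-TRECK and 4.37 in DT-treated OHC-TRECK mice. It was thus lower in both OHC-TRECK pools than in both WT pools, and S100a9, the brightest marker, weighs most in it. With 1 pool per group, genotype and pool cannot be told apart. The difference of DT-treated OHC-TRECK from the mean of the other 3 arrays had a median of 0.11 over the 4 erythroid markers. Of the 4 gut-type epithelium markers, Epcam alone was measured on all 4 arrays, at 0.66, while Vil1 passed the background test on 2 arrays, Krt20 on 1 and Cdh17 on none. The hair cell markers shared by both kinds of hair cells had a median of -0.44, with 7 of 8 below 0 and 3 of 8 (Gfi1, Pou4f3 and Tmc1) 2-fold lower than each other array.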
